A study of Homo sapiens with 8 samples.

Results

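The expression of 10 genes of the Notch pathway was followed in HuCCT1, an established human bile duct cancer cell line, after an shRNA against YAP1 was switched on. They were chosen by symbol as 3 receptors (NOTCH1, NOTCH2 and NOTCH3), 2 ligands (JAG1 and JAG2), the nuclear factor RBPJ, 3 target genes (HES1, HEY1 and NRARP) and DTX4, a ubiquitin ligase gene. They make up 10 of the 19775 genes measured on 8 Affymetrix arrays, 4 of cells with the YAP shRNA and 4 of cells with a scrambled control shRNA. Both groups received doxycycline at 100 ng/ml, given 3 days before seeding to induce the shRNA, so the controls carry the drug and a hairpin too. The labels name a single YAP shRNA (YAP shRNA 1), so effects of YAP1 loss and other effects of that hairpin cannot be told apart. The labels do not say whether the replicates were separate cultures, and p-values measure only how these samples vary, a variation that may be technical. Values are the authors' log2 values of 1 probe set, a group of probes for a transcript, and each gene is given by its brightest probe set unless another is named.

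Notch receptors sit on the cell surface and are cut when a ligand of the Jagged or Delta type on a neighbouring cell binds them. The freed inner part enters the nucleus, joins RBPJ and a Mastermind coactivator on DNA, and turns on genes such as HES1, HEY1 and NRARP. In the liver, Notch signalling guides precursor cells towards bile duct fate, and inherited loss of JAG1 or NOTCH2 leaves too few bile ducts (Alagille syndrome).

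The targeted gene and the epithelial label were checked first. YAP1, the transcriptional coactivator of the Hippo pathway, lay between 10.40 and 10.55 on the YAP shRNA arrays and between 12.59 and 12.77 on the control shRNA arrays, a 4.41-fold fall (limma adjusted p = 6.15e-07). The 7 measured biliary and epithelial markers, among them KRT7, KRT19, EPCAM and SOX9, had mean log2 values of 12.56 to 14.19 with the YAP shRNA and 12.63 to 14.20 with the control shRNA. Mean values of 6 hepatocyte markers spanned 4.16 (ALB) to 12.91 (SERPINA1) with the YAP shRNA and 4.32 to 12.72 with the control shRNA. The 3 leukocyte markers measured spanned 3.08 to 6.42 and 3.16 to 5.96 in the same groups, the 5 endothelial markers 3.68 to 6.22 and 3.66 to 5.98, and the 5 fibroblast markers 4.82 to 8.48 and 4.68 to 7.95. With the YAP shRNA, COL1A1, CD14, CDH1, SERPINA1 and KRT19 were higher by 0.52, 0.46, 0.33, 0.19 and 0.15, and PTPRC fell by 0.22 (limma adjusted p = 0.00316, 0.0112, 0.000376, 0.00877, 0.0137 and 0.0408). COL1A1 was the 1 fibroblast marker called, with COL1A2, COL3A1, DCN and PDGFRB at -0.06, 0.14, -0.006 and 0.16. Of the leukocyte markers, CD14 and PTPRC went opposite ways and CD3E, at -0.08, was not called. The rises of COL1A1 and CD14 are close in size to those of JAG2 and HES1 below, in which their part was not tested. Control shRNA replicate 4 stood apart from the other 7 arrays on the second principal component, so results are also given without it. By mean level, 0 of the 10 Notch genes lay below the 25th percentile of all genes and 1, NOTCH3, below the median.

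With YAP1 knocked down, 4 Notch genes rose and 0 fell. DTX4 rose 1.79-fold, NRARP 1.61-fold, JAG2 1.40-fold and HES1 1.35-fold. Counted by the same rule, a limma adjusted p below 0.05 over all genes, 4 of the 10 were higher, where 9.49% of all genes were higher and 7.17% lower. Among genes at or above the median level, where 9 of the 10 lie, 15.2% were higher and 11.4% lower. The 10 genes were picked with earlier results of these data known, so these shares describe the list and test nothing. The 3 receptors, JAG1, RBPJ and HEY1 did not pass the test. In bulk RNA, fewer cells of a type and less RNA per cell cannot be told apart.

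The sequences just upstream of the 4 genes that rose are shown because RBPJ and the YAP partner TEAD bind DNA. Control of these genes by either factor was not tested. Each sequence is the 250 bases before an annotated transcript start in RefSeq (GRCh38.p14), read on the strand of the gene. Capitals mark matches to TGGGAA, the core of the RBPJ motif. CATTCC, the core of the TEAD motif, was searched too and would also stand in capitals, and both were searched on both strands. DTX4 has 2 annotated starts. The windows are HES1 at chr3:194135898-194136147 (+), NRARP at chr9:137302272-137302521 (-), JAG2 at chr14:105168777-105169026 (-), and DTX4 at chr11:59171180-59171429 and chr11:59171882-59172131 (+).
HES1: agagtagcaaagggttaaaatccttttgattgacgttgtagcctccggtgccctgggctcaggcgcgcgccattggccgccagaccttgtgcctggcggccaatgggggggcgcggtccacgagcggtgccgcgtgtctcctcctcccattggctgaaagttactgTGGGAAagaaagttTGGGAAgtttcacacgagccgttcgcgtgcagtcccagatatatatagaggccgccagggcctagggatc
NRARP: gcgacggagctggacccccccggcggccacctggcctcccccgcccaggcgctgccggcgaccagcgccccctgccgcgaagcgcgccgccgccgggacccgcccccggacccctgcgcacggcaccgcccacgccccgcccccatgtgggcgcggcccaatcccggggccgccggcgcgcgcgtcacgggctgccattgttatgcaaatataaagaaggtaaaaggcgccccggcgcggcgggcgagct
JAG2: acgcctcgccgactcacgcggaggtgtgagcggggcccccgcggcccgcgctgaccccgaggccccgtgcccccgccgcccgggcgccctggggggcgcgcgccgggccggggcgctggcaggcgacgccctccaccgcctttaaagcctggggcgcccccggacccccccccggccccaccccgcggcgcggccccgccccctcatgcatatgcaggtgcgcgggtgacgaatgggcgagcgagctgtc
DTX4, first start: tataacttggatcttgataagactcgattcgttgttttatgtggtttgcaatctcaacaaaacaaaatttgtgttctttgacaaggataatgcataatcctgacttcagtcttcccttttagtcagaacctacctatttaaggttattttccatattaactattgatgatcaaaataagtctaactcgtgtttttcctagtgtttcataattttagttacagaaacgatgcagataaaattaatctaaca
DTX4, second start: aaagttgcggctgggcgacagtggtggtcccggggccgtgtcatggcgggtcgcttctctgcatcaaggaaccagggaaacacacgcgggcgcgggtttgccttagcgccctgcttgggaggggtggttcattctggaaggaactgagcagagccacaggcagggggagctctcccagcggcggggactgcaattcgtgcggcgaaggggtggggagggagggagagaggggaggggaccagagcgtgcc

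The HES1 window holds TGGGAA 2 times on the strand of the gene, starting 84 and 70 bases before the transcript start. No match to either motif lies in the windows of NRARP, JAG2 or DTX4, which says only that these letters are not there. Over 14 windows of the 9 Notch genes in the table, RBPJ is the other gene with TGGGAA, 2 times in 1 of its 5 windows, and CATTCC was found in none. Of all genes in the promoter table, 24.6% hold TGGGAA and 14.3% hold CATTCC in at least 1 such window, and a match describes the sequence, without showing whether a factor binds there. The windows also differ in base composition, from 30.4% G and C at the first DTX4 start to 81.6% at JAG2.

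**Figure D1:**
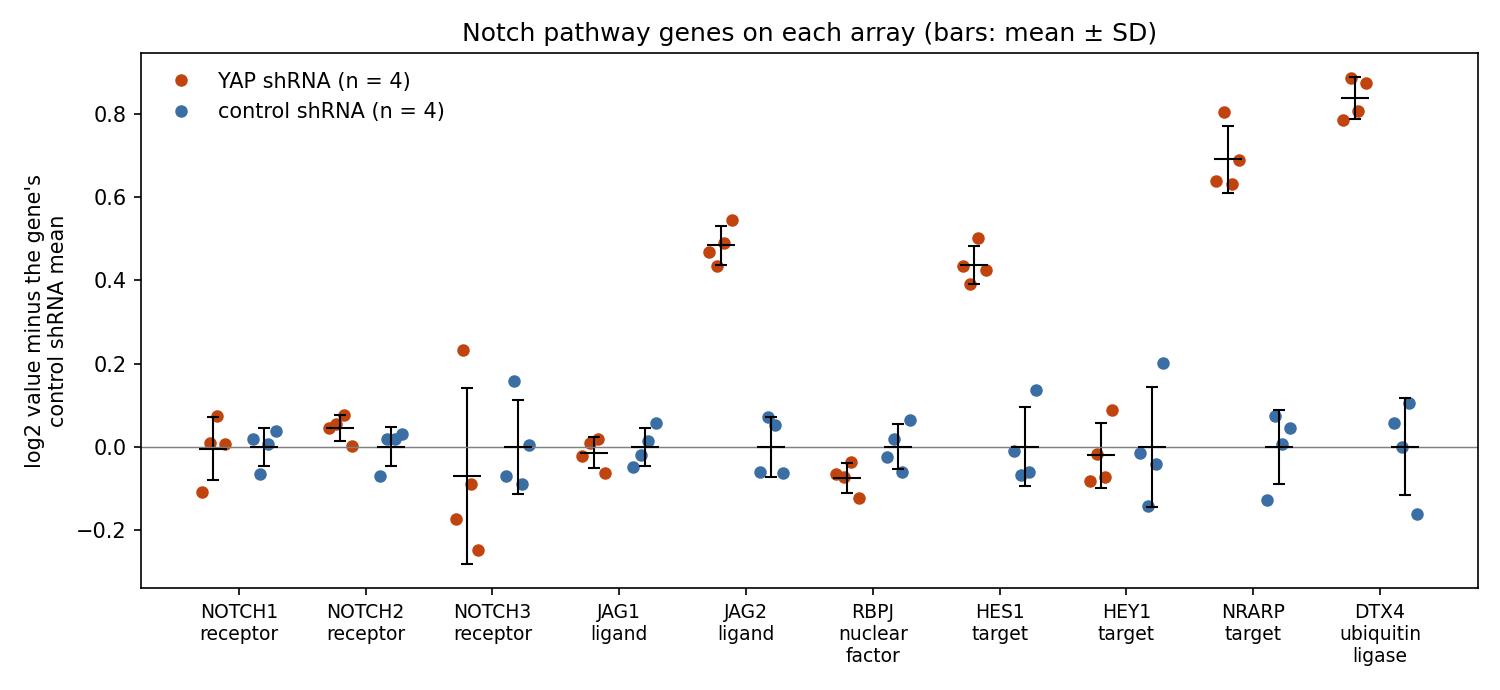
Log2 value of each Notch gene on every array, minus that gene's mean on the 4 control shRNA arrays. Points are arrays and bars give the mean ± SD of 4 arrays. The YAP shRNA points of JAG2, HES1, NRARP and DTX4 lie above all of their control shRNA points, and those of the other 6 genes overlap with theirs.

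Among the receptors, NOTCH2 stood at 12.52, 12.53, 12.55 and 12.48 with the YAP shRNA, against 12.40, 12.49, 12.49 and 12.50 with the control shRNA. The groups overlapped, with a log2 fold change of 0.04 and a 95% interval of -0.04 to 0.13 (limma adjusted p = 0.520). NOTCH2 has close human-specific copies (the NOTCH2NL genes), so its probe sets may also read those. NOTCH1 was measured at 8.19, 8.31, 8.37 and 8.31 on YAP shRNA arrays, against 8.32, 8.23, 8.31 and 8.34 on control shRNA arrays. Its group means differed by less than their spread, with a 95% interval of -0.12 to 0.11 for the log2 fold change. NOTCH3 varied most between arrays, at 6.26, 6.67, 6.34 and 6.18 with the YAP shRNA and 6.36, 6.59, 6.34 and 6.44 with the control shRNA. Its interval, -0.31 to 0.17, is the widest of the 6 genes that did not pass.

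Of the Jagged ligands, JAG2 rose and JAG1 did not pass the test. JAG1, the ligand tied to Alagille syndrome, had values of 13.40, 13.43, 13.44 and 13.35 with the YAP shRNA, against 13.37, 13.40, 13.43 and 13.47 with the control shRNA. These groups overlapped, with a log2 fold change of -0.01 (95% interval -0.11 to 0.08). JAG2 stood at 9.42, 9.39, 9.44 and 9.50 on the YAP shRNA arrays, against 8.89, 9.03, 9.01 and 8.89 on the control shRNA arrays. All 4 YAP shRNA arrays lay above all 4 controls, as they did for 13.4% of all genes, and JAG2 rose by 0.48 (standard error 0.048, limma adjusted p = 0.000293). Its second probe set gave the same picture, at 8.95, 8.92, 8.92 and 9.03 against 8.54, 8.45, 8.47 and 8.33 in controls, a log2 fold change of 0.51 (limma adjusted p = 0.000959 over all probe sets). All 6 JAG1 probe sets missed the threshold, with log2 fold changes of -0.12 to 0.01.

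The same contrast can be read within each array, as a description with no test, since these 2 pairs were chosen after their values were seen. JAG2 minus JAG1 averaged -3.97 ± 0.078 on the YAP shRNA arrays and -4.46 ± 0.090 on the control shRNA arrays (SD, n = 4 each), which differ by 0.50. HES1 minus HEY1, a pair of target genes, averaged 2.72 ± 0.107 with the YAP shRNA and 2.26 ± 0.058 with the control shRNA, which differ by 0.46. The absolute value of such a difference depends on the probes. Since JAG1 and HEY1 hardly moved, the change between groups mostly repeats the rise of JAG2 or HES1 and adds no support to it.

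**Figure D2:**
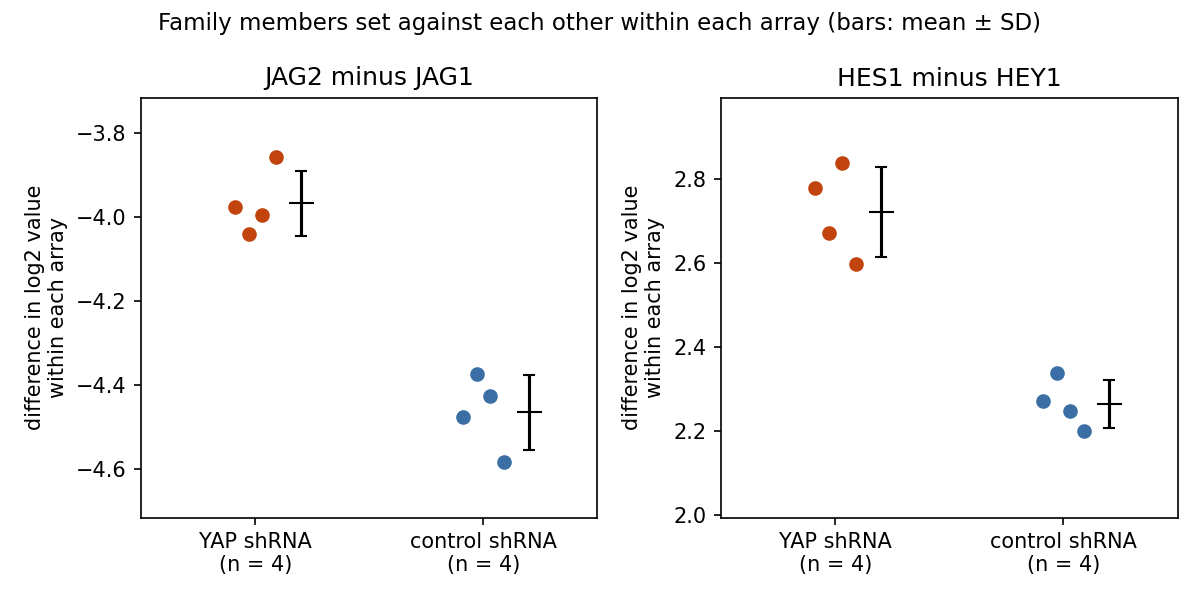
Difference in log2 value within each array between JAG2 and JAG1 (left panel) and between HES1 and HEY1 (right panel), for 4 YAP shRNA and 4 control shRNA arrays. Bars give the mean ± SD, and in both panels every YAP shRNA array lies above every control shRNA array. The pairs were chosen after their values were seen.

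RBPJ, the DNA-binding factor through which Notch acts, showed no change past the threshold. Its values were 12.52, 12.51, 12.55 and 12.46 on the YAP shRNA arrays, against 12.56, 12.60, 12.52 and 12.65 on the control shRNA arrays. The groups overlapped at 1 pair of arrays, YAP shRNA replicate 3 and control shRNA replicate 3, and the log2 fold change was -0.07 (95% interval -0.17 to 0.02; limma adjusted p = 0.290). Its other probe sets gave 0.02 and -0.04. RBPJ has processed copies elsewhere in the human genome that its probe sets may also read.

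Of the HES and HEY repressors, HES1 rose and HEY1 did not pass the test. HES1 stood at 10.85, 10.81, 10.92 and 10.84 with the YAP shRNA, against 10.41, 10.35, 10.36 and 10.55 with the control shRNA. The highest control value, that of replicate 4, still lay below every YAP shRNA value, and HES1 rose by 0.44 (standard error 0.054, limma adjusted p = 0.000969). A second HES1 probe set read 10.11, 10.14, 10.09 and 10.12 against 9.76, 9.75, 9.82 and 9.98 in controls, a rise of 0.29 (limma adjusted p = 0.0160 over all probe sets). The third was dim, with means of 4.07 with the YAP shRNA and 4.09 with the control shRNA, and gave -0.02. It is the HES1 probe set that remains once those marked _s_at and _x_at, whose probes may match several transcripts, are left out. The HES1 call thus rests on _s_at probe sets. Averaged over its 3 probe sets, HES1 rose by 0.23 (limma adjusted p = 0.0112). HEY1 was measured at 8.07, 8.13, 8.08 and 8.24 on YAP shRNA arrays, against 8.14, 8.01, 8.11 and 8.35 on control shRNA arrays. Its groups overlapped and its log2 fold change was -0.02 (95% interval -0.19 to 0.15), turning to 0.05 without control shRNA replicate 4. HEY1 lies on chromosome 8. The median log2 fold change was 0.07 over the 716 measured genes of that chromosome and 0.01 over all genes.

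The steepest rises belonged to NRARP and DTX4, genes whose products act on the pathway itself. NRARP encodes a small ankyrin repeat protein that is turned on by Notch and dampens it by binding the RBPJ complex. Its values were 9.49, 9.65, 9.48 and 9.54 on the YAP shRNA arrays, against 8.72, 8.92, 8.86 and 8.90 on the control shRNA arrays. The gap between the lowest YAP shRNA array and the highest control array was larger than the range of either group, and NRARP rose by 0.69 (standard error 0.059, limma adjusted p = 0.000163). DTX4 encodes a ubiquitin ligase of the Deltex family, which acts on Notch receptors. It was measured at 8.61, 8.71, 8.63 and 8.70 with the YAP shRNA, against 7.88, 7.82, 7.93 and 7.66 with the control shRNA. Here too the groups lay well apart, and DTX4 rose by 0.84 (standard error 0.062, limma adjusted p = 8.70e-05). Called rises at least as large were seen in 0.551% of all genes for DTX4 and 0.92% for NRARP, against 2.17% for JAG2 and 2.62% for HES1. NRARP and DTX4 each have a single probe set, so no second reading of either is at hand.

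Without control shRNA replicate 4, the same 4 genes passed the test. Their log2 fold changes were then 0.78 for DTX4, 0.71 for NRARP, 0.48 for HES1 and 0.46 for JAG2. Over all 26 probe sets of the 10 genes, 6 were higher and 0 lower with limma and adjustment over all probe sets, where 5.25% of all probe sets were higher and 4.96% lower. Those shares include dim probe sets, and JAG2 and HES1 are each counted more than once among the 6. The 19 probe sets of the 6 genes that did not pass ranged from -0.12 to 0.14, all smaller in size than the smallest called change of 0.29.

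**Figure D3:**
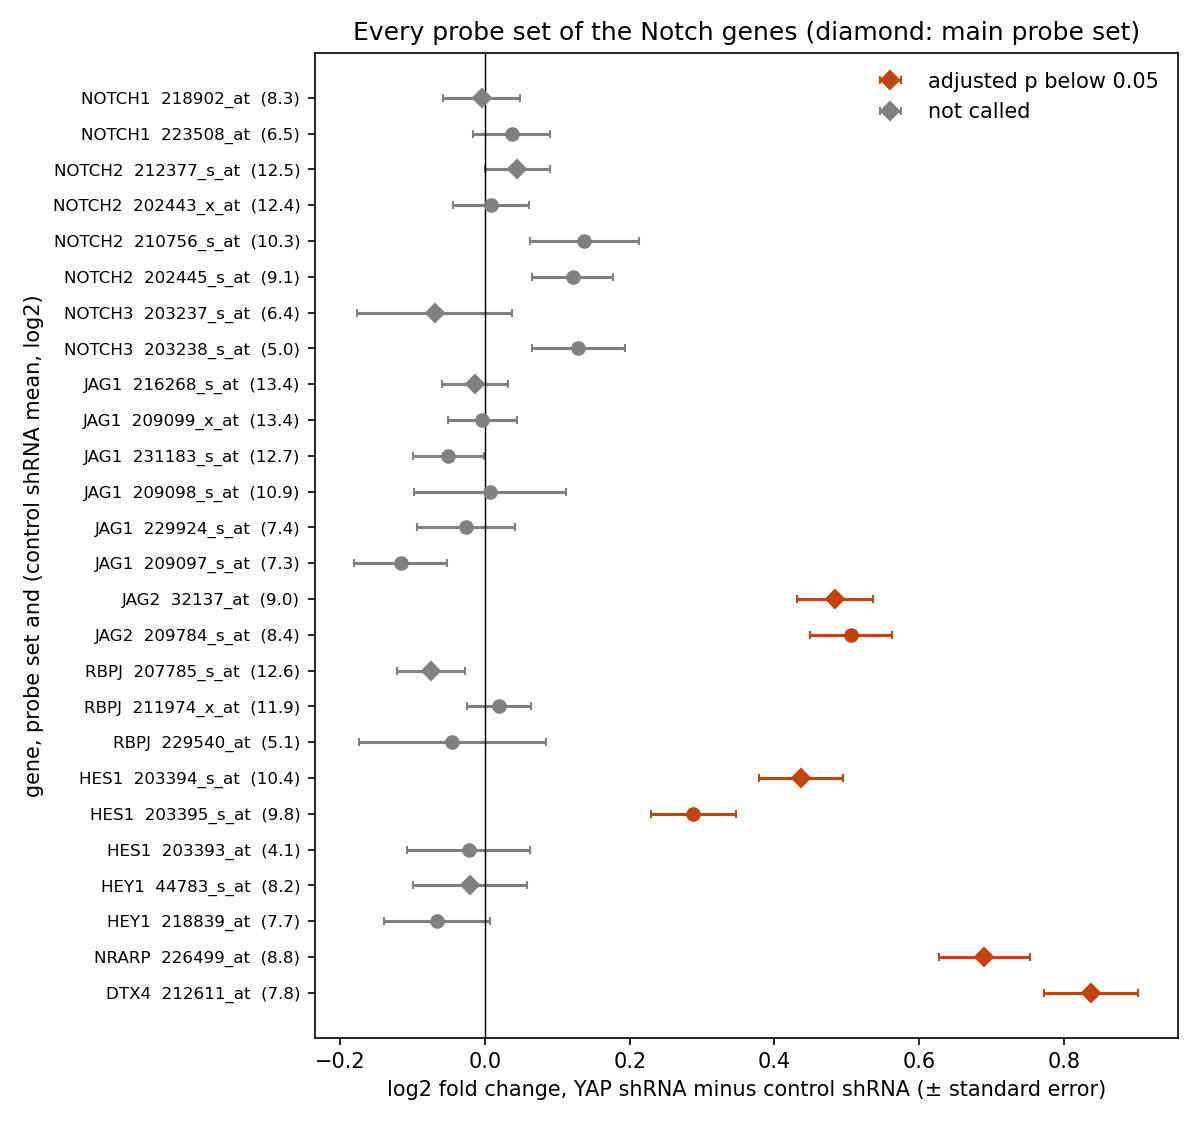
Log2 fold change of every probe set of the 10 Notch genes, with its limma standard error, for 4 YAP shRNA minus 4 control shRNA arrays. Diamonds mark the main probe sets and the control shRNA mean stands in brackets. Both JAG2 probe sets, 2 of 3 HES1 probe sets and the single NRARP and DTX4 probe sets are called, and the rest lie near 0.

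The rest of the pathway moved little. Of 59 further Notch genes listed by role, 55 were analysed here, and 7 of these were higher and 1 lower, or 12.7% and 1.82%, where 9.49% and 7.17% of all genes were. Most of the 55 lie at or above the median level, where 15.2% of genes were higher and 11.4% lower. Their median log2 fold change was 0.04, where that of all genes was 0.01 and that of the 10 Notch genes 0.02.

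FURIN stood out among the genes of receptor processing. This protease cuts the Notch receptor precursor on its way to the surface, and its transcript rose by 0.54 (standard error 0.050, limma adjusted p = 0.000228). Its values were 9.97, 10.05, 9.99 and 9.89 with the YAP shRNA, against 9.39, 9.43, 9.38 and 9.53 with the control shRNA, with no overlap. NCSTN, a subunit of the gamma-secretase that frees the inner part of the receptor, rose by 0.20 (limma adjusted p = 0.0215). A second NCSTN probe set was dim, with means of 3.92 with the YAP shRNA and 3.95 with the control shRNA. The mean of the NCSTN probe sets, which takes in the dim one, gave 0.086 and was not called (limma adjusted p = 0.424). The remaining 6 processing genes, ADAM10 and ADAM17 among them, did not pass.

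In the nucleus, small rises appeared on both sides. The Mastermind coactivators MAML2 and MAML1 rose by 0.21 and 0.16 (limma adjusted p = 0.00895 and 0.0278), and the corepressor genes SPEN and HDAC1 by 0.26 and 0.13 (limma adjusted p = 0.0401 and 0.0297). SPEN is a partner of RBPJ in repression. With adjustment over all probe sets, 0 of its 4 probe sets passed, and neither did those of MAML1 and HDAC1 (limma adjusted p = 0.0622 and 0.0821). Of the 2 MAML2 probe sets 1 passed, and the other gave 0.22 (limma adjusted p = 0.219). MAML3 was not called by its brightest probe set (0.07, limma adjusted p = 0.366), though 1 of its 3 probe sets passed over all probe sets. The mean of the SPEN probe sets gave 0.12 (limma adjusted p = 0.372). Among ubiquitin ligases, DTX3L, a Deltex relative, rose by 0.16 and NEDD4 fell by 0.24 (limma adjusted p = 0.0162 and 0.0101).

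Some of these smaller calls were lost when single arrays were left out. The 7 rises became 4, 3, 2 and 4 when control shRNA replicate 2 or YAP shRNA replicate 2, 3 or 4 was left out, while FURIN, MAML2 and NEDD4 were called with any 1 array left out. The sizes moved less than the calls, with HDAC1 at 0.12 to 0.14, DTX3L at 0.15 to 0.18, MAML1 at 0.14 to 0.18, NCSTN at 0.17 to 0.22 and SPEN at 0.19 to 0.30. Without control shRNA replicate 4, all 8 calls remained, APH1A, TLE3 and CDKN1A were higher as well, and TLE1 was lower. With the main settings on all 8 arrays, no call was made among the other receptor, ligand, glycosyltransferase and HES or HEY genes. Among 4 other reported targets, CDKN1A included, none was called either. The genes of smallest p in those roles were NOTCH4, DLL4, LFNG, HES2 and MYC, with log2 fold changes of 0.08, 0.06, 0.13, 0.23 and 0.26 (limma adjusted p = 0.489, 0.545, 0.324, 0.0639 and 0.0888). Of these, HES2 and MYC were called as higher under 3 alternative settings each (lowest limma adjusted p = 0.0244 and 0.00545). MYC, like HEY1, lies on chromosome 8, where the median log2 fold change was 0.07.

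**Figure D4:**
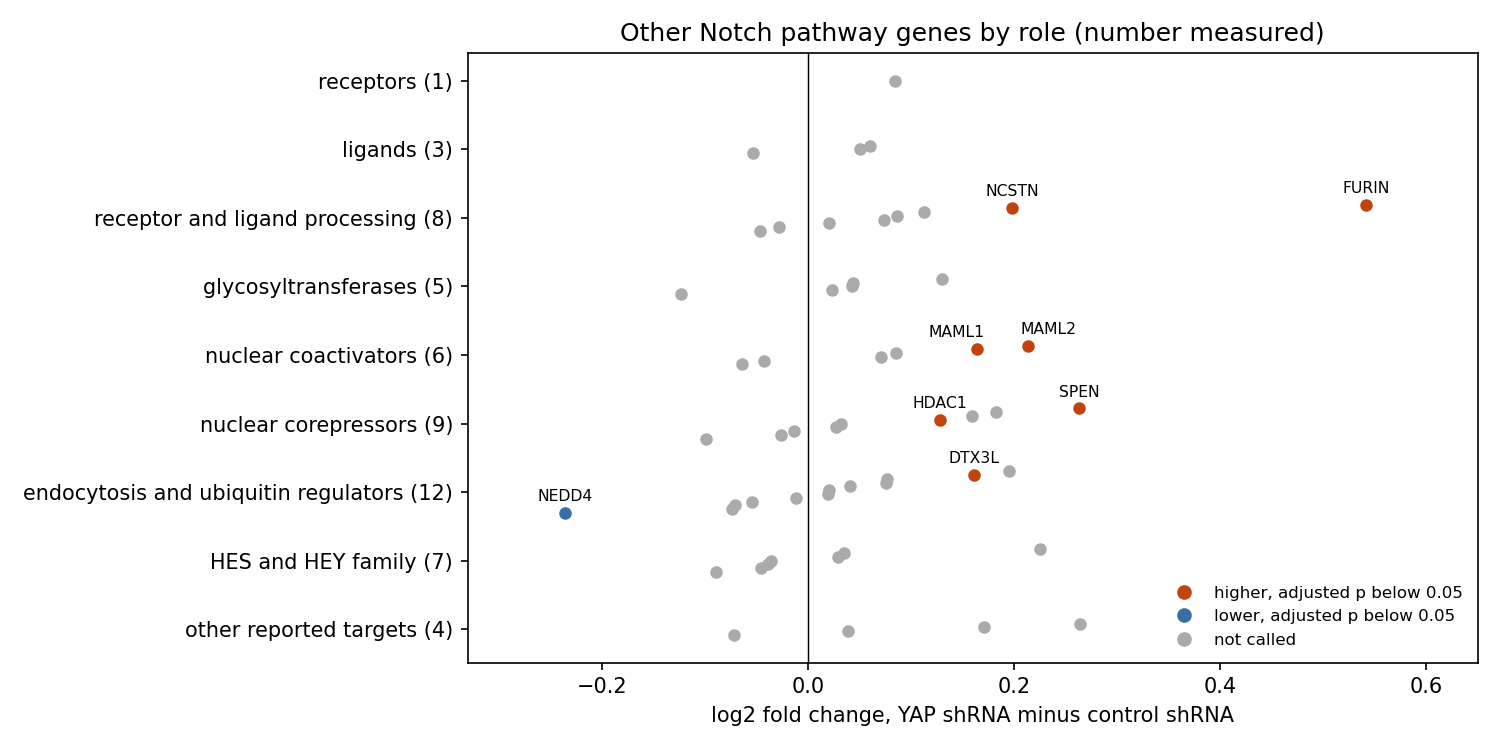
Log2 fold change of 55 further Notch pathway genes, 4 YAP shRNA minus 4 control shRNA arrays, grouped by role with the number measured in brackets. Each point is a gene and coloured points are named. FURIN lies far to the right at 0.54, the other 6 called rises lie between 0.13 and 0.26, and NEDD4 is the called fall at -0.24.

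Genes with profiles most like the 4 that rose were sought over all 8 arrays, by the root mean square distance between log2 values after removing each gene's mean. Nearest to DTX4 were ERBB3, PPARG and ADAMTS9, at distances of 0.033, 0.038 and 0.052. NRARP had ST6GAL1, PTCH1 and PXDN, at 0.050, 0.065 and 0.068. JAG2 was closest to ERICH1, GPR157 and DDX60 (0.033, 0.035 and 0.041), and HES1 to AP1M2, TMEM45B and PLAAT4 (0.026, 0.028 and 0.028). Within a distance of 0.1 lay 21 genes for DTX4, 22 for NRARP, 254 for JAG2 and 370 for HES1, so the smaller rises had many genes of like profile. Profiles were not scaled, so for these genes a small distance mostly means a rise of like size. Shared control of such genes was not tested.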

How the data were processed

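Log2 values of 54675 probe sets on 8 arrays, as deposited by the authors, were used with no further normalization, since array medians lay between 6.22 and 6.25. The log base was inferred from the values. How the authors corrected background and normalized is not given in the sources used. A NuGEN amplification kit and biotin labelling were used, per the labels' protocols. Values carry no detection call, and the number of arrays limits the precision.

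GEO's platform annotation gave 1 symbol to 41097 probe sets. Each of 19775 genes was given by its probe set of highest mean. The labels gave the groups. Differences were fitted with limma 3.58.1 in R 4.3.3 with empirical Bayes moderation, YAP shRNA minus control shRNA, no block and Benjamini-Hochberg adjustment over all genes, with calls at 0.05. The fit was tested on simulated data. Intervals are 95% limma intervals.

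The text names the 10 genes, YAP1, called genes of the wider list, the gene of smallest p in a role with no call, and the 3 nearest profiles of each called gene. The cell markers and the genes called without control shRNA replicate 4 are named besides. Members, lists and motifs were chosen with earlier results of these data known. Alternatives covered normalization, dim genes, choice of probe set, spread models, array weights, the threshold, blocking on replicate number and leaving out single arrays.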

Additional observations from a re-analysis of the deposited data

Results flagged for a closer look

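Among 72 groups of 4 arrays, from 36 genes named in the text, 5 had 1 array far from the other 3 by Dixon's criterion, where chance gives about 3.6. NOTCH2 was low in control shRNA replicate 1, at 12.40, with the other controls at 12.49 to 12.50. YAP1 was high in control shRNA replicate 3, at 12.77, with the others at 12.59 to 12.61. In control shRNA replicate 4, DLL4 read 5.13 (5.08 in the others) and AP1M2, the nearest profile to HES1, read 10.12 (9.98 to 10.00 in the others). ST6GAL1, the nearest profile to NRARP, was low in YAP shRNA replicate 1, at 9.97, with the others at 10.04 to 10.06. None of the groups of JAG2, HES1, NRARP and DTX4 was among the 5.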

How the results depend on the processing

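The Notch genes gave 4 rises and 0 falls under every alternative except the one without _s_at and _x_at probe sets, which gave 3 and 0. JAG2, NRARP and DTX4 were called under all 19 alternatives each. HES1 was called under 18 and stood at -0.022 in that one (limma adjusted p = 0.911), since its dim probe set alone then remains. In that setting 3 probe sets of the Notch genes were higher, as fewer were tested, against 6 in all, and 5 to 6 with single arrays left out. For the wider list, 7 rises and 1 fall became 11 rises without genes below the median level, and 2 rises and 0 falls at an adjusted p below 0.01. With single arrays left out the list had 2 to 10 rises and 1 to 2 falls, and all genes called numbered 2381 to 3881, against 3294. At an adjusted p below 0.01, 1785 genes were called.

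With the replicate number as a block, the 4 Notch calls remained, while the list had 1 rise and 0 falls and 2106 genes were called. No pairing by number was seen: deviations of same-numbered arrays correlated at -0.21 to 0.00, and 0 of 8 arrays correlated best with their own number. With so few arrays this check cannot exclude a pairing. Other than HES1, 0 named genes changed sign with a call. The cause of the other changes was not tested.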
